A study of Homo sapiens with 12 samples.

Results

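Long non-coding RNA (lncRNA) genes were followed in HK-2 cells, an immortalised epithelial line from the human renal proximal tubule, after exposure to the compound labelled CdCl. Members were chosen by name: genes whose symbol begins with LINC, SNHG or DIRC3, or ends in -AS1, -AS2, -DT or -IT1. Of 1835 such genes on the array, 224 exceeded a log2 signal of 4 on at least 3 of the 12 arrays and were analysed, among 10683 genes of all kinds that passed the same filter. The 4 groups were CdCl for 12 h, control vehicle for 12 h, CdCl for 48 h and control vehicle for 48 h, each with 3 arrays of biological replicates. HK-2 cells without any other genetic change were used in all groups, and all were grown with insulin, transferrin, selenite, hydrocortisone and epidermal growth factor. No source used here gives the dose. The line is a single immortalised culture, which limits it as a model of the tubule.

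Transcripts of this class are made by RNA polymerase II and do not serve mainly as templates for protein. Their names tell where they lie. An -AS gene is read antisense to the gene it is named after, and a -DT gene is a divergent transcript that starts beside a partner promoter and runs the other way. LINC genes stand between coding genes, -IT genes lie in introns, and SNHG genes are hosts whose introns release small nucleolar RNAs (snoRNAs), the guides of ribosomal RNA modification. Many such transcripts are capped and polyadenylated, are made at low levels and decay quickly, some through the nuclear exosome and others through nonsense-mediated decay.

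By name, the 224 genes comprised 107 with -AS1, 60 with LINC, 42 with -DT, 8 with -AS2, 5 with SNHG, 1 with -IT1 and DIRC3. A probe set of 1 gene symbol stood for each gene, the one with the highest mean over the 12 arrays. Signals above 4 on all 12 arrays were found for 156 of them. The choice rested on these levels: LINC00886 and ZNF143-AS1 lay just inside, with 4.01 and 4.04 as the lowest of their 3 highest values, and ALOX12-AS1 and LINC01410 just outside, with 3.98 each. Because the filter reads the same arrays, 13 genes passed through CdCl arrays only and 9 through control arrays only. Their adjusted p-values are therefore given below from the fit without a filter, in which every gene on the array was tested, and counts are also given for the 201 genes with a mean over the 12 arrays above 4. DIRC3 was named singly in the rule with its response known, so its values are a description without a test.

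The cells carried the epithelial label in their RNA, with 6 of 6 epithelial markers above 4 on all arrays, while 4 of 4 measured leukocyte markers and 4 of 4 endothelial markers were under 4 on all arrays. Of 3 neural markers RBFOX3 and GFAP were under 4 throughout, and SNAP25 lay between 7.35 and 9.15. Of 8 genes of proximal tubule function, 7 were under 4 throughout, and of 4 measured tubule transcription factor and identity genes PAX2 and LHX1 were under 4. Across the lncRNA genes, arrays of the same group correlated at 0.974 to 0.989, and arrays of different groups at 0.775 to 0.929. The replicate spread was wider for lncRNA genes, with a median residual SD of 0.198 log2 units, against 0.126 for all genes tested. The spiked poly-A control probe sets, 27 in number, also differed between groups: their mean was 6.51 ± 0.03 in CdCl cells and 6.09 ± 0.11 in control cells at 12 h, and 5.90 ± 0.44 in CdCl cells and 5.74 ± 0.09 in control cells at 48 h (SD, n = 3 each). Their part in the gene differences was not tested. In RNA from a whole culture, fewer cells making a transcript and less of it per cell cannot be told apart.

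At 12 h, 30 lncRNA genes, DIRC3 included, were higher and 66 lower in CdCl than in control cells (limma, Benjamini-Hochberg adjusted p under 0.05). That is 42.9% of the 224, against 56.4% of all genes tested, of which 16.7% were higher and 39.7% lower. At 48 h the balance differed, with 59 higher and 43 lower, or 45.5% called against 54.6% of all genes, of which 26.5% were higher and 28.0% lower. Among the 201 genes with a mean above 4, the counts were 26 higher and 61 lower at 12 h, and 50 and 40 at 48 h. The direction at 12 h depended on scaling. The median change of all genes tested was -0.16 on the log2 scale at 12 h and -0.02 at 48 h, and for the lncRNA genes it was -0.10 and 0.01. With each array centred on the median of the genes tested, the lncRNA calls at 12 h became 50 higher and 44 lower, where 50.9% of all genes were called, and those at 48 h became 63 and 40, where 54.5% were.

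**Figure D1:**
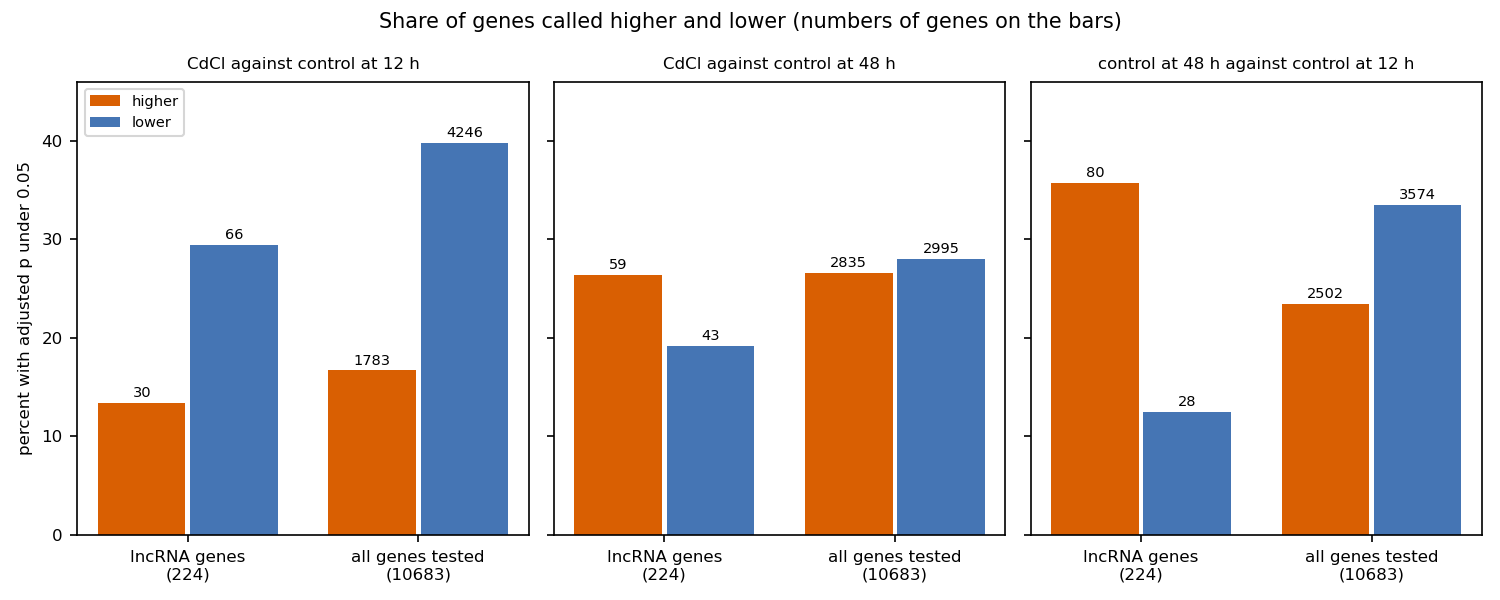
Percent of genes called higher (orange) and lower (blue) at an adjusted p under 0.05 in 3 comparisons, for the 224 lncRNA genes and for all 10683 genes tested, with gene counts on the bars. With the values as deposited, 80 lncRNA genes were higher and 28 lower in control cells at 48 h than at 12 h. More of all genes were lower than higher.

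Calls of at least 2-fold numbered 27 at 12 h and 30 at 48 h, or 12.1% and 13.4% of the lncRNA genes, where 8.48% and 9.88% of all genes tested reached that size. Among the 201 genes with a mean above 4 they numbered 23 and 20, or 11.4% and 9.95%. The same direction was called at both times for 24 genes that were higher, or 10.7% against 11.4% of all genes, and for 29 that were lower, or 12.9% against 19%. These counts come from the filtered fit and include DIRC3 and genes that passed through CdCl arrays only, such as LINC00304 and NR2F1-AS1. They are therefore a description. Among the 24, LINC02901 and CARD8-AS1 were not called at 48 h without a filter (adjusted p 0.077 and 0.057). Lower at 12 h and higher at 48 h were 5 genes, ELOA-AS1, NCK1-DT, RAB30-DT, SNHG33 and SP2-AS1, where 4.09% of all genes did so. The opposite order was called for ZFHX4-AS1 alone, where 1.15% of all genes showed it.

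**Figure D2:**
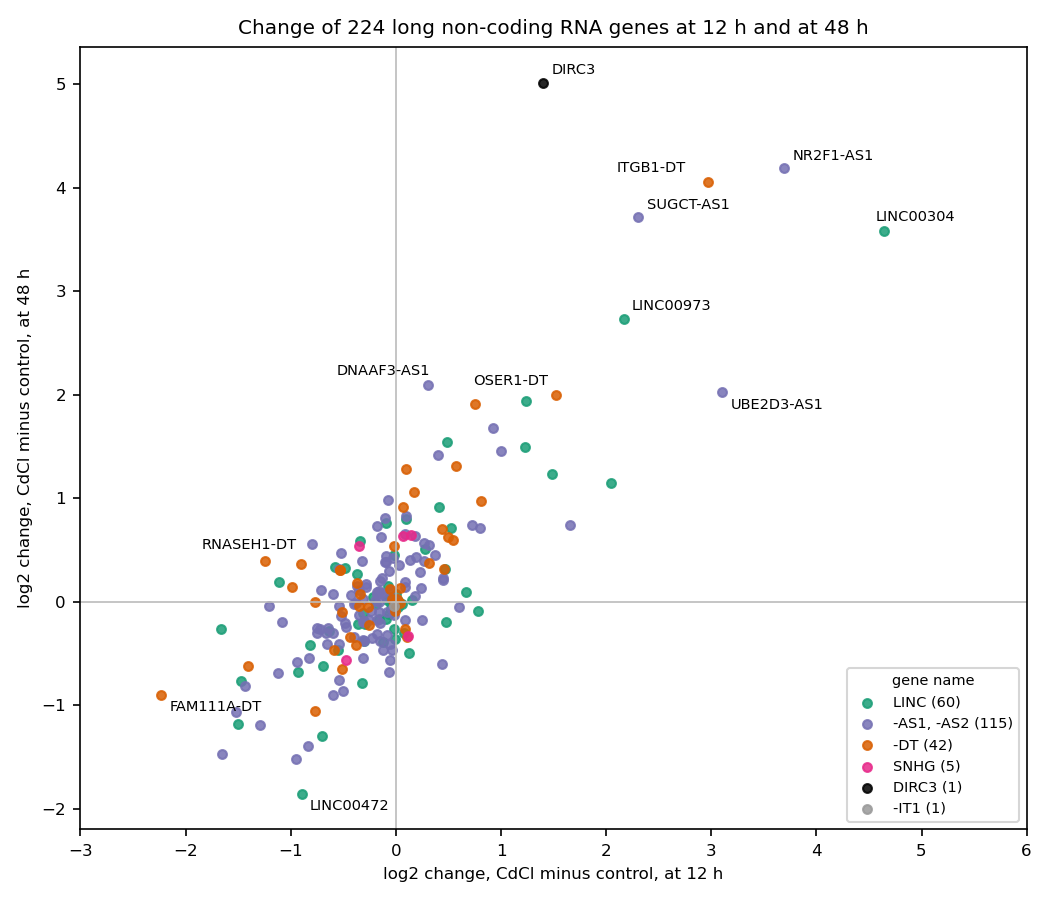
Log2 change of each of the 224 lncRNA genes, CdCl minus control, at 12 h (horizontal) and at 48 h (vertical), coloured by the kind of name. A handful of genes, among them LINC00304, NR2F1-AS1, ITGB1-DT, SUGCT-AS1 and DIRC3, lie far from the main cloud in the upper right.

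Most of the strongest rises came from genes that were under the filter value in control cells. LINC00304, an intergenic gene of chromosome 16, gave 6.33, 6.85 and 7.14 in CdCl cells at 12 h, against 1.93, 2.50 and 1.95 in controls. At 48 h it gave 6.57, 6.07 and 6.81 with CdCl, against 2.33, 2.73 and 3.65 in controls. No CdCl array overlapped a control array at either time. With the control group set to the filter value of 4, it was at least 6.84-fold higher at 12 h and at least 5.59-fold higher at 48 h. The fitted log2 change was 4.65 ± 0.33 at 12 h (SE, adjusted p without a filter 1.35e-05) and 3.58 ± 0.33 at 48 h (5.56e-05). This signal came from 1 of 3 probe sets of the gene: the other two stayed between 2.16 and 2.91 on all arrays.

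NR2F1-AS1 lies opposite the start of NR2F1, which encodes an orphan nuclear receptor. It read 7.02, 7.22 and 7.66 in CdCl cells at 12 h, against 3.47, 3.54 and 3.80 in controls, and 7.49, 7.62 and 8.15 in CdCl cells at 48 h, against 3.54, 3.60 and 3.54 in controls. It was at least 9.84-fold higher at 12 h and at least 13.5-fold higher at 48 h, with log2 changes of 3.69 ± 0.18 and 4.19 ± 0.18 (adjusted p without a filter 1.46e-06 and 5.42e-07). Here too a single probe set carried the signal, and both others lay between 2.51 and 2.61 on every array.

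ITGB1-DT starts beside ITGB1, the gene of the beta 1 integrin subunit that anchors epithelial cells to matrix. Its CdCl arrays lay at 6.83, 6.79 and 7.06 at 12 h, against 4.22, 3.52 and 4.02 in controls. At 48 h the CdCl arrays were at 6.85, 7.09 and 7.11, against 2.87, 2.86 and 3.16 in controls. The rise was 7.85-fold at 12 h, where 2 of 3 control arrays exceeded 4, and at least 8.09-fold at 48 h (log2 change 2.97 ± 0.16 and 4.05 ± 0.16, adjusted p 6.3e-08 and 4.3e-09). The CdCl means were alike at both times, 7.02 at 48 h and 6.89 at 12 h. The fitted difference of the effects, 1.08 ± 0.23 log2 units (adjusted p 0.0033), therefore rests on control means of 2.97 at 48 h and 3.92 at 12 h, which lie under the filter value and bound a level rather than measure it.

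UBE2D3-AS1 is antisense to UBE2D3, the gene of a ubiquitin-conjugating enzyme. Values of 6.40, 6.14 and 6.60 were found with CdCl at 12 h, against 3.04, 3.70 and 3.08 in controls. At 48 h they were 5.07, 4.98 and 5.75 with CdCl, against 3.14, 3.55 and 3.05 in controls. It was at least 5.20-fold higher at 12 h and at least 2.41-fold higher at 48 h (log2 change 3.11 ± 0.23 and 2.02 ± 0.23, adjusted p without a filter 1.89e-05 and 0.000235). The effect at 48 h minus that at 12 h was -1.09 ± 0.36 log2 units, and this difference did not pass the test (adjusted p without a filter 0.067).

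SUGCT-AS1, antisense to the gene of an enzyme that handles glutarate, behaved in the opposite order. It reached 4.42, 4.69 and 4.84 in CdCl cells at 12 h and 6.37, 5.35 and 6.47 at 48 h, while the 6 control arrays lay between 2.32 and 2.37. It was at least 1.57-fold higher at 12 h and at least 4.18-fold higher at 48 h (log2 change 2.30 ± 0.23 and 3.71 ± 0.23, adjusted p without a filter 0.000111 and 4.61e-06). The difference of the effects was 1.41 ± 0.36 (adjusted p without a filter 0.022).

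LINC00973 was measured well above the filter in all groups. It read 8.88, 8.81 and 9.28 in CdCl cells at 12 h, against 7.13, 6.94 and 6.40 in controls, a rise of 4.49-fold (log2 change 2.17 ± 0.22, adjusted p 8.9e-06). At 48 h it read 8.13, 7.78 and 8.32 with CdCl, against 5.13, 5.72 and 5.18 in controls, a rise of 6.66-fold (2.74 ± 0.22, adjusted p 1.1e-06). Its level in control cells was lower at 48 h than at 12 h by 1.48 ± 0.22 (adjusted p 0.00012), and with CdCl it stayed above both.

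DIRC3, a gene first met at a chromosome breakpoint in familial renal cancer, gave the widest late difference. At 48 h it stood at 8.32, 8.27 and 8.24 in CdCl cells, against 3.31, 3.10 and 3.38 in control cells, at least 19.4-fold. At 12 h it was spread over 3.91, 4.68 and 5.56 with CdCl, against 3.27, 3.30 and 3.37 in controls, at least 1.64-fold. In human melanoma cells DIRC3 has been tied to the expression of its neighbour IGFBP5, a gene looked up after these values were seen. All 6 IGFBP5 probe sets had a mean under 4 in every group, the highest being 3.88, so no level of it could be compared here.

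**Figure D3:**
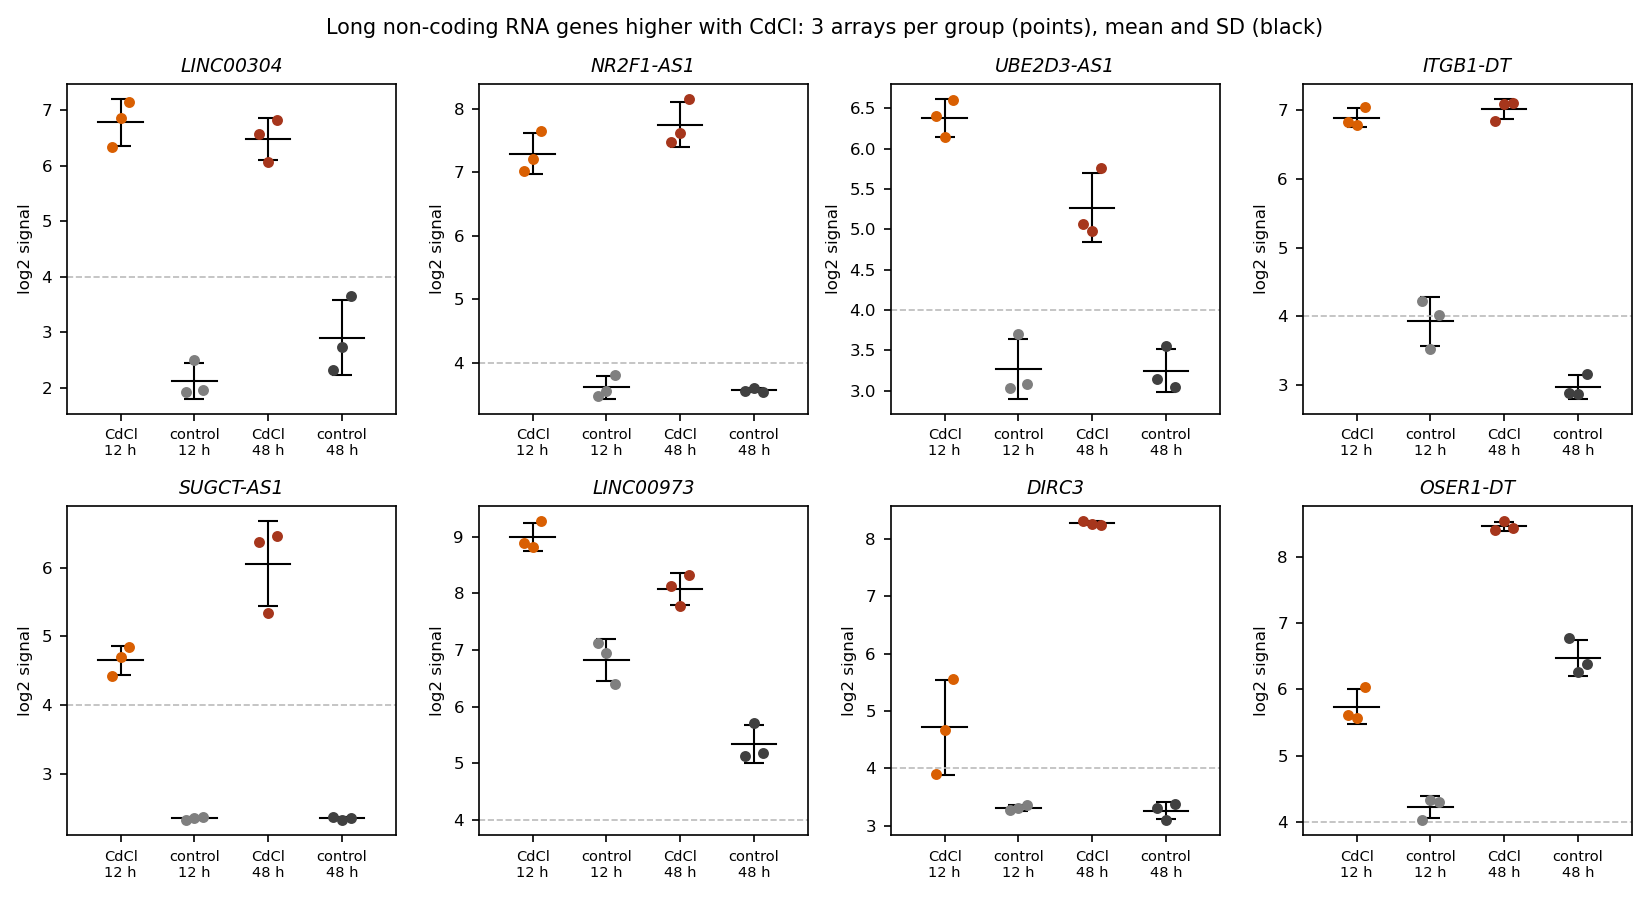
Log2 signal of 8 lncRNA genes on each array (points), with the mean and SD of 3 arrays (black) in CdCl and control cells at 12 h and at 48 h; the dashed line marks the filter value of 4. In each panel the CdCl points lie above the control points of the same time, and in DIRC3 the CdCl points at 48 h lie far above those at 12 h.

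Smaller rises were seen in OSER1-DT, LINC01111, CARD8-AS1, LINC02535, LINC02901 and DNAAF3-AS1. LINC01111 read 7.93, 7.65 and 8.53 in CdCl cells at 12 h, against 7.04, 6.72 and 6.62 in controls. At 48 h it read 7.98, 7.92 and 7.88 with CdCl, against 6.09, 5.80 and 6.10 in controls. The rise was 2.36-fold at 12 h and 3.82-fold at 48 h (adjusted p 0.00018 and 5.1e-06), and no arrays overlapped. CARD8-AS1 is antisense to CARD8, a sensor of the inflammasome. It read 5.93, 5.95 and 6.36 with CdCl at 12 h, against 4.54, 4.72 and 4.02 in controls, a 3.15-fold rise (adjusted p 9.6e-05). At 48 h it read 5.88, 5.13 and 6.04 with CdCl, against 4.95, 4.86 and 5.01 in controls, 1.67-fold (adjusted p 0.017). That late call ended without a filter and without any 1 of 3 arrays, CdCl at 48 h replicates 1 and 3 and control at 48 h replicate 2, where the adjusted p lay between 0.0522 and 0.0737.

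LINC02535 read 4.71, 5.11 and 5.79 in CdCl cells at 12 h, against 3.34, 3.02 and 3.13 in controls, at least 2.31-fold (adjusted p without a filter 0.00179). By 48 h the values were 4.49, 3.14 and 4.07 with CdCl, against 2.50, 2.97 and 2.79 in controls (log2 change 1.15 ± 0.32, adjusted p without a filter 0.038). The CdCl array of replicate 2 lay close to the controls at that time. The same array was low for LINC02901, which read 4.27, 2.64 and 4.24 with CdCl at 48 h, against 2.49, 2.46 and 2.48 in controls. Its log2 change was 1.24 ± 0.41 with an adjusted p of 0.077 without a filter, and at 12 h it was 1.49 ± 0.41 (0.034). DNAAF3-AS1 passed the filter through the CdCl arrays at 48 h alone, where it gave 4.52, 4.35 and 4.52, against 2.38, 2.36 and 2.38 in controls, at least 1.38-fold. At 12 h it gave 2.42, 3.23 and 2.46 with CdCl, against 2.36, 2.40 and 2.43 in controls, and the groups overlapped.

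Among the genes that fell, FAM111A-DT changed most. It read 5.06, 5.06 and 5.18 in CdCl cells at 12 h, against 7.47, 7.38 and 7.14 in controls, 4.69-fold lower (log2 change -2.23 ± 0.10, adjusted p 8.6e-09). After 48 h it measured 6.63, 6.50 and 6.68 with CdCl, against 7.54, 7.59 and 7.38 in controls, 1.87-fold lower (-0.90 ± 0.10, adjusted p 1.1e-05). The fall was thus smaller at 48 h, by 1.33 ± 0.14 log2 units (adjusted p 3.7e-05), although with the mean of its probe sets, of which the second was dim, the difference was 0.32 (0.22). FLVCR1-DT, beside the gene of a haem exporter, read 5.39, 5.77 and 5.15 with CdCl at 12 h, against 6.79, 6.78 and 6.97 in controls, 2.66-fold lower (adjusted p 3.5e-06), and was 1.53-fold lower at 48 h (0.0015). LINC01003 was 2.78-fold lower at 12 h (adjusted p 2.5e-05) and 1.71-fold lower at 48 h (0.0024). The differences of the effects were 0.79 ± 0.18 for FLVCR1-DT and 0.70 ± 0.24 for LINC01003 (adjusted p 0.0048 and 0.037). For LINC01003 the call ended without a filter, after centring on the median of the genes tested and without any 1 of 8 arrays, with an adjusted p of 0.057 to 0.096. RNASEH1-DT fell 2.38-fold at 12 h, with 5.22, 5.21 and 5.21 in CdCl cells, against 7.01, 6.26 and 6.11 in controls (adjusted p 0.00015). The later arrays gave 6.75, 6.44 and 6.77 with CdCl, against 6.25, 6.30 and 6.24 in controls (log2 change 0.39 ± 0.19, adjusted p 0.095). These arrays did not overlap, and whether the late rise was called depended on the setting. It was called with quantile normalization (adjusted p 0.042) and without control at 12 h replicate 1 (0.0043), but not without a filter (0.22).

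LINC00537 gave a low early level with CdCl that control cells also showed later. At 12 h it read 3.52, 3.57 and 3.50 with CdCl, against 5.27, 5.22 and 5.09 in controls, at least 2.29-fold lower (adjusted p without a filter 1.18e-05). Its 48 h arrays read 3.54, 3.55 and 3.48 with CdCl, against 3.61, 4.14 and 3.60 in controls (log2 change -0.26 ± 0.12, adjusted p without a filter 0.186).

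Other falls lasted or grew. LINC00472 read 5.61, 5.05 and 5.44 in CdCl cells at 12 h, against 6.41, 6.37 and 6.00 in controls, 1.86-fold lower (adjusted p 0.0024). The values at 48 h were 3.93, 3.47 and 3.93 with CdCl, against 5.67, 5.94 and 5.29 in controls, at least 3.10-fold lower (adjusted p 1.1e-05). The effect was larger at 48 h, with a difference of -0.96 ± 0.28 (adjusted p 0.018, and 0.057 without a filter). HOXA-AS2, from within the HOXA homeobox cluster, read 3.73, 3.67 and 3.59 with CdCl at 12 h, against 4.69, 4.55 and 4.26 in controls. By 48 h it read 3.21, 3.33 and 3.21 with CdCl, against 4.56, 4.59 and 4.79 in controls. It was at least 1.42-fold lower at 12 h and at least 1.57-fold lower at 48 h (adjusted p without a filter 0.000249 and 8.56e-06). A second probe set of HOXA-AS2, above 4 on 3 arrays, fell less at 48 h, with log2 differences of -0.74 at 12 h and -0.35 at 48 h, without a test.

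RNF157-AS1, PSMB8-AS1, LINC00920, WDFY3-AS2, KCNJ5-AS1, BAIAP2-DT and ANXA2R-AS1 were lower at both times with no overlap of arrays. RNF157-AS1 read 4.60, 4.97 and 4.46 in CdCl cells at 12 h, against 6.60, 6.13 and 6.26 in controls, 3.15-fold lower (adjusted p 0.0003). It was 2.77-fold lower at 48 h (adjusted p 0.00069). PSMB8-AS1, antisense to an immunoproteasome subunit gene, was at least 1.65-fold lower at 12 h and at least 1.44-fold lower at 48 h (adjusted p without a filter 6.32e-05 and 0.000505). WDFY3-AS2, named after an autophagy adaptor gene, was 2.45-fold lower at 12 h (adjusted p 0.0012) and 2.28-fold lower at 48 h (0.0021). KCNJ5-AS1, named after a potassium channel gene, was 2.70-fold lower at 12 h (adjusted p 7.6e-05) and 1.76-fold lower at 48 h (0.0037). BAIAP2-DT was 1.70-fold lower at 12 h (adjusted p 0.0013) and 2.07-fold lower at 48 h (0.00013). Another of its probe sets, above 4 on all 12 arrays, fell less at 48 h, with log2 differences of -1.15 at 12 h and -0.65 at 48 h, without a test. LINC00920 and ANXA2R-AS1 passed the filter through control arrays only. They were at least 1.64-fold and 1.11-fold lower at 12 h (adjusted p without a filter 0.00408 and 0.0316), and at least 1.75-fold and 1.91-fold lower at 48 h (0.0155 and 0.00271).

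LINC01139 and ZBED3-AS1 were also lower at 48 h, and the early call of the one and the late call of the other depended on the setting. LINC01139 read 6.94, 6.77 and 7.30 in CdCl cells at 48 h, against 8.25, 8.72 and 7.94 in controls, 2.46-fold lower (adjusted p 0.00033). It was 1.62-fold lower at 12 h with an adjusted p of 0.016, which became 0.051 to 0.071 without a filter or without control at 12 h replicate 1 or 2. ZBED3-AS1 read 4.63, 4.10 and 4.53 with CdCl at 48 h, against 4.96, 5.74 and 5.27 in controls, 1.87-fold lower (adjusted p 0.037). That call ended without a filter and without CdCl at 48 h replicate 2 or 3 or control at 48 h replicate 2 or 3, with an adjusted p of 0.0600 to 0.138, and it ended with the replicate number as a block (0.058).

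Divergent and antisense genes could be set beside the genes they are named after. Of 158 genes with such a suffix, 140 had their partner on the array and 115 had a partner that passed the filter. RefSeq promoters of build GRCh38.p14 were given for both genes of 112 pairs, and 110 of these pairs lay on opposite strands. The distance between starts, taken from the first listed start of each gene, had a median of 148 bases for -DT pairs and 2918 bases for -AS1 pairs, and 61 pairs had starts within 1000 bases. Across the 36 -DT pairs, the changes of lncRNA and partner correlated at r = 0.44 at 12 h and 0.42 at 48 h (Spearman's rho 0.46 and 0.51). Across the 78 -AS1 and -AS2 pairs, r was 0.09 and 0.20 (rho 0.05 and 0.29). These values are descriptions across gene pairs that share the same arrays, without a test.

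Of the 36 -DT pairs, 17 lncRNA genes and 26 partners were called at 12 h, and 20 and 26 at 48 h. Called together were 14 pairs at 12 h, where the product of both shares gives 12.3, and of these 8 had both genes lower, 2 had both higher and 4 moved in opposite directions. At 48 h again 14 -DT pairs were called together, where the product gives 14.4, with 6 both higher, 6 both lower and 2 opposite. Among the 78 antisense pairs, 17 were called together at 12 h, with 10 in the same direction, and 16 at 48 h, with 11 in the same direction, where the products give 17.2 and 19. The numbers called together were thus near those that the separate calls give.

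**Figure D4:**
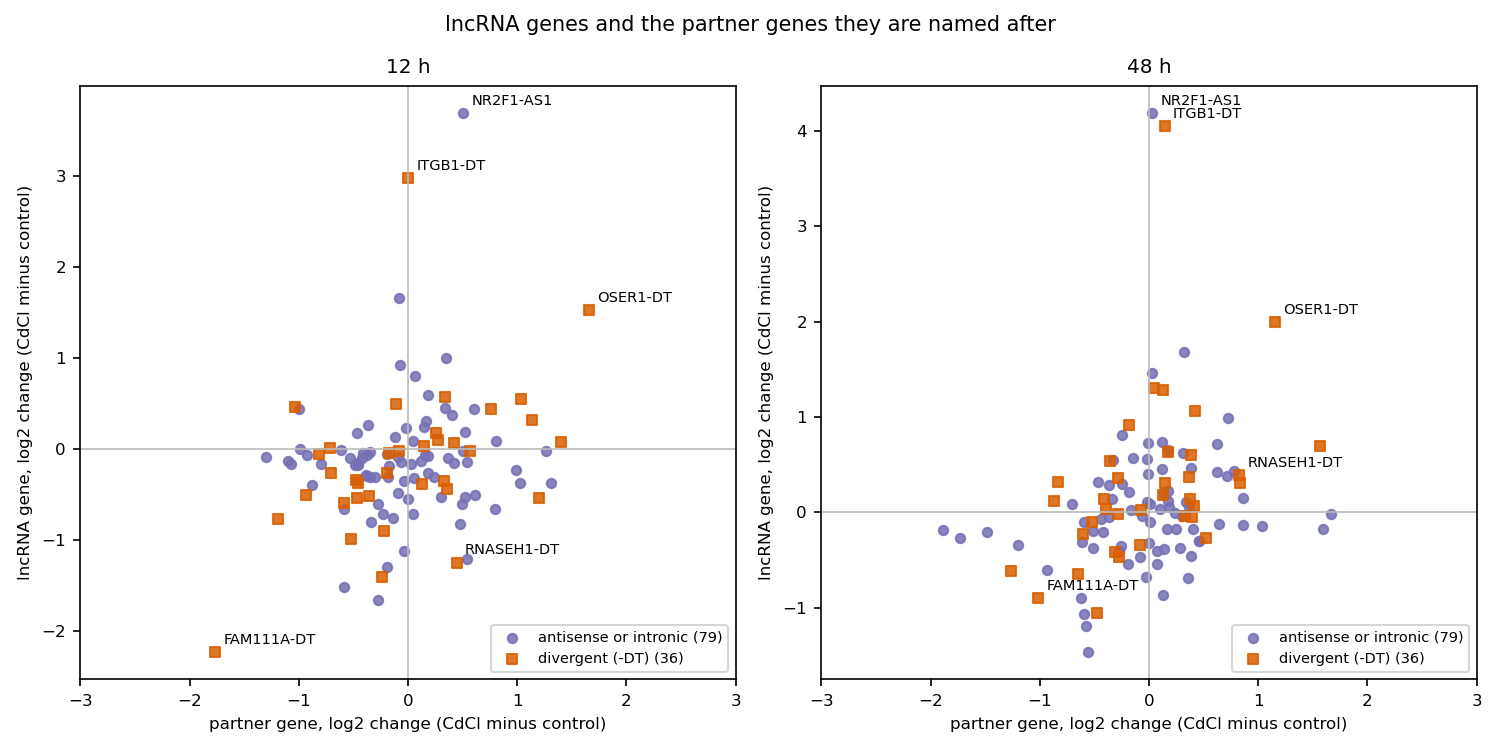
Log2 change (CdCl minus control) of lncRNA genes, vertical, against that of the partner gene, horizontal, at 12 h and at 48 h; squares are 36 divergent pairs and circles 79 antisense or intronic pairs. FAM111A-DT and OSER1-DT lie far out on the same side as their partners, while NR2F1-AS1 and ITGB1-DT lie high with a partner change between 0.00 and 0.51.

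The promoters of 3 divergent genes are shown because both genes of each pair changed at 12 h, in the same direction for FAM111A-DT and OSER1-DT and in opposite directions for RNASEH1-DT. The promoter windows run from 250 bases before to 50 bases after the first listed RefSeq start of the lncRNA gene (GRCh38.p14), and capitals mark the bases that lie between its start and that of the partner, 48 for FAM111A-DT (chr11:59142759-59143058, minus strand), 189 for OSER1-DT (chr20:44210710-44211009, plus strand) and 53 for RNASEH1-DT (chr2:3558136-3558435, plus strand).
FAM111A-DT: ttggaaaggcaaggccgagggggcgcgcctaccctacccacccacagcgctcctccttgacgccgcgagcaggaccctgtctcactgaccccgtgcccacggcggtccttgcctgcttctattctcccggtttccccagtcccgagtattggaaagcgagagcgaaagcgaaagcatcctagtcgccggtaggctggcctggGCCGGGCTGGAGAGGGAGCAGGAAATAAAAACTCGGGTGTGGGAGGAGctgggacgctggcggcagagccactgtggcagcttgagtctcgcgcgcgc
OSER1-DT: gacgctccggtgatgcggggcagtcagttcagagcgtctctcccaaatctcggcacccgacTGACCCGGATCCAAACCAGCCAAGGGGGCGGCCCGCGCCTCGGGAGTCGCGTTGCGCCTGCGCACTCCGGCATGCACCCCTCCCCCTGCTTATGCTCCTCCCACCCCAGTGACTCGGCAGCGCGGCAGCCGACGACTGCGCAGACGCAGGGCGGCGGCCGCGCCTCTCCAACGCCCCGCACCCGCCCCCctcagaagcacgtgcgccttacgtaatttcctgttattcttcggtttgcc
RNASEH1-DT: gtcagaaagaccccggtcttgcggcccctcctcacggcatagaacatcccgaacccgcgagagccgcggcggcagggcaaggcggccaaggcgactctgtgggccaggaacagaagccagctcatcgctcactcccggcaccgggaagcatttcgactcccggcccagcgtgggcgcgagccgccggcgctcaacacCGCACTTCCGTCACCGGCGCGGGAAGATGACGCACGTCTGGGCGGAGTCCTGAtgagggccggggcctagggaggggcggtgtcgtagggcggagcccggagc

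FAM111A encodes a protease that acts at stalled replication forks, and it fell with its divergent partner. It read 8.18, 8.35 and 8.12 in CdCl cells at 12 h, against 9.99, 9.90 and 10.06 in controls (log2 change -1.77 ± 0.10, adjusted p 6.8e-08). At the later time it read 7.80, 8.07 and 7.91 with CdCl, against 8.99, 9.05 and 8.79 in controls (-1.02 ± 0.10, adjusted p 4.2e-06). Both genes of the pair were thus lower at both times with no overlap of arrays.

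OSER1, an oxidative stress responsive gene, rose with OSER1-DT. The divergent transcript read 5.61, 5.56 and 6.04 in CdCl cells at 12 h, against 4.02, 4.33 and 4.29 in controls, and 8.42, 8.55 and 8.45 with CdCl at 48 h, against 6.79, 6.27 and 6.38 in controls. Its rise was 2.88-fold at 12 h and 3.98-fold at 48 h (adjusted p 8.2e-06 and 7.6e-07). OSER1 itself read 9.73, 9.66 and 9.83 with CdCl at 12 h, against 8.11, 8.04 and 8.09 in controls (log2 change 1.65 ± 0.07, adjusted p 8.6e-09). Its values after 48 h were 9.61, 9.72 and 9.54 with CdCl, against 8.41, 8.48 and 8.53 in controls (1.15 ± 0.07, adjusted p 1.4e-07). In control cells OSER1-DT was 4.80-fold higher at 48 h than at 12 h, and OSER1 was higher by 0.39 ± 0.07 log2 units.

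RNASEH1, the gene of the nuclease that cuts RNA in RNA-DNA hybrids, went against its partner at 12 h. It read 9.90, 9.84 and 10.01 in CdCl cells, against 9.44, 9.40 and 9.57 in controls (log2 change 0.45 ± 0.08, adjusted p 0.00049), while RNASEH1-DT was lower. RAB30-DT, with its start 169 bases from that of the Golgi GTPase gene RAB30, also moved opposite to it at 12 h. RAB30-DT read 7.52, 7.26 and 7.58 with CdCl, against 7.98, 8.02 and 7.97 in controls (-0.53 ± 0.11, adjusted p 0.0018). RAB30 read 4.32, 3.89 and 4.81 with CdCl, against 3.01, 3.02 and 3.40 in controls (1.20 ± 0.24, adjusted p 0.0013). RAB30 and RAB30-DT were chosen after their values were seen.

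Among the strongest risers, ITGB1-DT had the partner ITGB1, which lay between 13.11 and 13.42 on all 12 arrays, and its log2 change was 0.00 ± 0.08 at 12 h (adjusted p 0.99) and 0.14 ± 0.08 at 48 h (0.16). It was read from its brightest probe set, and 2 others above 4 on all arrays differed by 0.41 and 0.19 at 12 h and by 0.18 and 0.17 at 48 h, without a test. NR2F1, called higher at 12 h, read 4.39, 4.79 and 4.25 with CdCl at 12 h, against 3.85, 4.11 and 3.95 in controls (0.51 ± 0.15, adjusted p 0.012), and its change at 48 h was 0.03 ± 0.15 (0.88). The log2 change of CARD8 was -0.08 ± 0.16 at 12 h and 0.12 ± 0.16 at 48 h (adjusted p 0.69 and 0.55). The partners SUGCT, DNAAF3, KCNJ5 and ANXA2R did not pass the filter, and UBE2D3 had no probe set of 1 symbol.

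Among the partners of falling genes, PSMB8 was lower at both times, by 0.59 ± 0.07 log2 units each (adjusted p 4.2e-05 at 12 h and 3.4e-05 at 48 h). BAIAP2, an actin regulator gene, was lower by 1.19 ± 0.12 at 12 h (adjusted p 6.7e-06) and by 0.47 ± 0.12 at 48 h (0.0046), although its change at 48 h was 0.04 with the mean of its probe sets. FLVCR1, RNF157 and WDFY3 were lower at 48 h, with changes of -1.26 ± 0.12, -0.56 ± 0.15 and -0.58 ± 0.09 (adjusted p 3.7e-06, 0.0091 and 0.00028). Their changes at 12 h were -0.24, -0.27 and -0.19 (adjusted p 0.11, 0.15 and 0.10). With the mean of all probe sets FLVCR1 and WDFY3 were called at 12 h too (-0.40 and -0.23, adjusted p 0.00038 and 0.044). So was FLVCR1 without CdCl at 48 h replicate 3 (0.038), and RNF157 and WDFY3 without CdCl at 12 h replicate 2 (0.023 and 0.013). ZFHX4, a homeobox gene, was lower at both times by 1.00 ± 0.09 and 0.94 ± 0.09 (adjusted p 5.4e-06 and 6.7e-06).

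Short response elements were counted in the promoter windows of the lncRNA genes, on both strands. A window was given for 176 of the 224 genes, 10 of the named genes that rose and 13 of those that fell. The letters TGCNCNC are a loose form of the metal response element, the site of the metal-sensing factor MTF1. They were found in 7 of the 10 and in 5 of the 13, but also in 55.7% of the 176 and in 55.2% of 27305 promoters of all genes. The antioxidant response element TGACNNNGC, bound by NRF2 with small MAF proteins, was found in 4 of the 10, CARD8-AS1, DNAAF3-AS1, LINC02535 and OSER1-DT, and in 2 of the 13. Its share was 18.8% of the 176 and 13.6% of all promoters. In the OSER1-DT window this element begins 80 bases before the start, between the starts of both genes. The AP-1 element TGANTCA was found in 3 of the 10, in 0 of the 13, in 8.52% of the 176 and in 7.76% of all promoters. The heat shock element was in none of these 10 or 13 windows and in 0.487% of all promoters. These matches describe letters in 1 window per gene and are not binding sites.

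Of the 5 SNHG genes, 0 were higher and 2 lower at 12 h, and 3 were higher and 1 lower at 48 h, beside the shares of all genes given above. SNHG32 read 12.80, 12.97 and 12.87 in CdCl cells at 48 h, against 12.23, 12.19 and 12.31 in controls, a rise of 1.55-fold (adjusted p 2.5e-05). At 12 h it read 10.68, 10.80 and 10.69 with CdCl, against 10.77, 10.61 and 10.59 in controls, and the arrays overlapped (adjusted p 0.49). SNHG17 read 9.69, 9.77 and 9.66 with CdCl at 48 h, against 9.07, 8.99 and 9.10 in controls, 1.57-fold higher (adjusted p 1.4e-05), and at 12 h its log2 change was 0.15 ± 0.07 (0.10). SNHG33 was lower at 12 h, with 8.23, 8.23 and 8.50 in CdCl cells, against 8.75, 8.66 and 8.59 in controls (adjusted p 0.0051), and higher at 48 h, with 10.21, 10.06 and 10.19, against 9.55, 9.61 and 9.67 in controls (0.00026).

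SNHG19 was lower at both times. It read 7.57, 7.74 and 7.82 in CdCl cells at 12 h, against 8.36, 8.07 and 8.12 in controls (log2 change -0.47 ± 0.10, adjusted p 0.0015). After 48 h the arrays gave 7.50, 7.45 and 7.67 with CdCl, against 8.07, 8.06 and 8.18 in controls (-0.56 ± 0.10, adjusted p 0.00043). The log2 change of SNHG18 was 0.12 ± 0.13 at 12 h and -0.33 ± 0.13 at 48 h (adjusted p 0.48 and 0.052). The calls at 12 h moved with scaling. With arrays centred on the median of the genes tested, SNHG17 and SNHG32 were higher (adjusted p 0.0087 and 0.038) and SNHG33 was no longer called (0.077). The probe sets of SNHG17 and SNHG32 are of the kind that can match several transcripts, and that of SNHG19 of the kind that can match unrelated sequences.

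**Figure D5:**
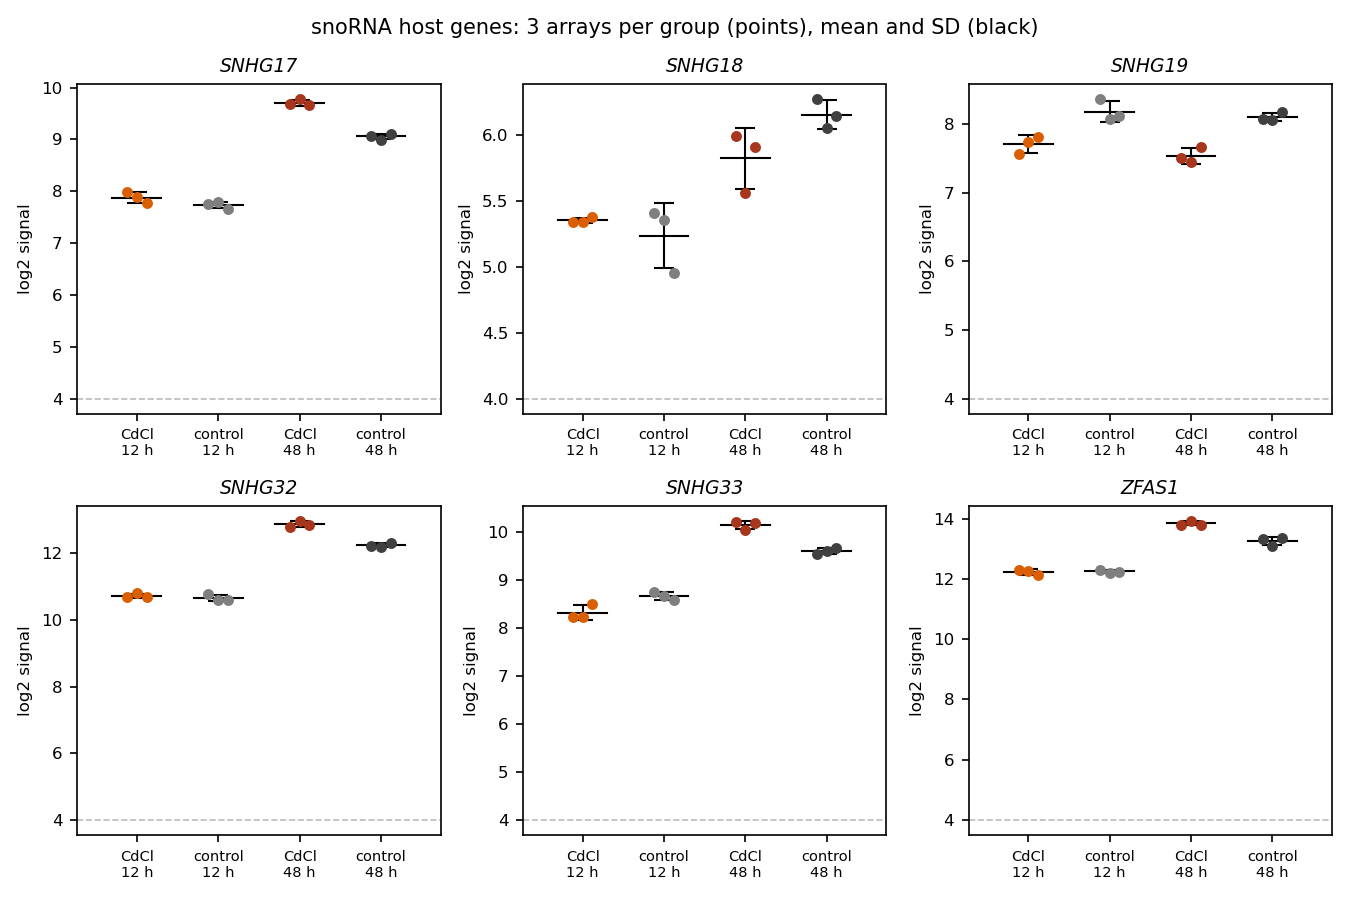
Log2 signal of the 5 SNHG genes and of ZFAS1, another snoRNA host gene, on each array (points), with the mean and SD of 3 arrays (black) in CdCl and control cells at 12 h and at 48 h. ZFAS1 was picked from the list of other lncRNA genes, whose changes at 48 h went both ways. In SNHG17, SNHG32, SNHG33 and ZFAS1 the control points at 48 h lie above those at 12 h and the CdCl points at 48 h lie higher still.

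Many snoRNA host genes are known to start with a run of pyrimidines, the feature that puts the translation of ribosomal protein mRNAs under growth control. The annotated starts are shown because the 5 host genes differ in it. Each sequence holds 10 bases before and 20 bases from the first listed RefSeq start (GRCh38.p14). Capitals mark the run of a C and at least 4 further pyrimidines that begins nearest to the start and within 5 bases of it. The base before the start of SNHG18 is a C as well.
SNHG17 (chr20:38435309-38435338, minus strand): gtgtggcctcagtCCTTCgccgtccctcgc
SNHG18 (chr5:9546190-9546219, plus strand): gccgcgccgcCTCCTCCTCCTCCTCCTCCC
SNHG19 (chr16:2155339-2155368, minus strand): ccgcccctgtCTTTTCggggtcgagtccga
SNHG32 (chr6:31834906-31834935, plus strand): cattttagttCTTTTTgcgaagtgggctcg
SNHG33 (chr3:183447598-183447627, plus strand): gaggcttttacaccgaacggaggtgatgtg

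Read from the start base, such a run was found in 3 of the 5 genes, SNHG18, SNHG19 and SNHG32. It was found in 4.04% of 27305 promoters of all genes. Within 5 bases of the start it was found in 4 of the 5 and in 21.1% of all promoters. SNHG33, in which no run began within 5 bases of the start, was higher at 48 h. Its printed sequence holds a run, CTTTT, that begins just outside that limit. Of the genes with a run within the limit, SNHG17 and SNHG32 were higher and SNHG19 was lower.

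The lncRNA genes also differed between the times in control cells. Time in culture and sample handling tied to time cannot be told apart here. The log2 difference between the 3' and 5' actin control probe sets also differed. It was 1.71 to 2.11 in control cells at 12 h and 1.36 to 1.57 at 48 h, and its part was not tested. In control cells 80 were higher at 48 h than at 12 h and 28 lower, 48.2% of them, against 56.9% of all genes tested, of which 23.4% were higher and 33.5% lower. Among the 201 genes with a mean above 4 the counts were 75 and 25. The median change was 0.20 log2 units for the lncRNA genes, against -0.06 for all genes tested. LINC genes gave 23 higher and 7 lower of 60, -AS1 genes 37 and 14 of 107, -DT genes 14 and 5 of 42, and SNHG genes 4 and 0 of 5. After centring on the median of the genes tested the lncRNA counts were 96 and 21, where 57.2% of all genes were called.

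LINC00662 rose most with time, with 7.91, 7.78 and 8.12 in control cells at 48 h, against 5.11, 5.20 and 5.64 at 12 h, 6.14-fold higher (adjusted p 1.9e-08). This signal came from a single probe set. The others of the gene did not exceed 3.69 on any array, with log2 differences of 0.01 to 0.52. ZFHX4-AS1 read 8.77, 8.48 and 8.59 at 48 h, against 6.48, 6.34 and 6.04 at 12 h, 5.02-fold higher (adjusted p 3.1e-07). EPB41L4A-AS1, which also hosts a snoRNA, read 10.58, 10.54 and 10.64 at 48 h, against 8.93, 8.76 and 8.65 at 12 h, 3.49-fold higher (adjusted p 1.3e-08). SNHG32 was 3.00-fold higher at 48 h and SNHG17 2.50-fold (adjusted p 1.5e-08 and 3.9e-08). SNHG33 and SNHG18 were higher by 0.94 ± 0.09 and 0.92 ± 0.13 log2 units (adjusted p 3e-06 and 0.0001), and the change of SNHG19 was -0.08 ± 0.10 (0.51).

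Lower with time were LINC02532, LINC00973, LINC00537, PTPRG-AS1 and ZDHHC12-DT. LINC02532 read 5.30, 5.64 and 4.72 in control cells at 48 h, against 7.11, 6.99 and 6.52 at 12 h, 3.14-fold lower (adjusted p 2.6e-05). PTPRG-AS1, named after a receptor tyrosine phosphatase gene, read 4.18, 4.10 and 3.88 at 48 h, against 5.43, 5.07 and 5.14 at 12 h, 2.22-fold lower (adjusted p 9.5e-05). ZDHHC12-DT was 2.22-fold lower as well (adjusted p 6.8e-05), and its partner ZDHHC12, a palmitoyltransferase gene, was lower by 1.05 ± 0.09 log2 units (1.4e-06).

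The CdCl effect itself differed between the times for 64 lncRNA genes, 28.6% of them, against 40.1% of all genes tested. It was more positive at 48 h for 51 genes and more negative for 13, where 27.0% and 13.0% of all genes were. With centring on the median of the genes tested the counts were 37 and 17. Of all genes 36.5% were then called, 17.9% more positive and 18.6% more negative. By kind of name and with the values as deposited, -DT genes gave 15 and 1 of 42, -AS1 genes 18 and 6 of 107, LINC genes 12 and 5 of 60, and SNHG genes 3 and 0 of 5. After centring these became 13 and 1 for -DT, 11 and 8 for -AS1, 8 and 6 for LINC, and 3 and 1 for SNHG genes. LINC-PINT, a transcript induced by p53, was among those that moved down: it read 5.69, 5.89 and 6.28 in CdCl cells at 12 h, against 5.13, 4.93 and 5.45 in controls (log2 change 0.78 ± 0.16, adjusted p 0.0016). The 48 h arrays read 5.83, 5.81 and 6.01 with CdCl, against 6.12, 5.76 and 6.04 in controls (-0.09 ± 0.16, adjusted p 0.68). The difference of its effects was -0.87 ± 0.23 (adjusted p 0.011), and -0.18 with the mean of its probe sets (0.10). ZFHX4-AS1 was 1.35-fold higher with CdCl at 12 h (adjusted p 0.039) and 1.52-fold lower at 48 h (0.0081). The early call of ZFHX4-AS1 ended without a filter, with the mean of its probe sets, with the replicate block, and without CdCl at 12 h replicate 3 or control at 12 h replicate 2 or 3, with an adjusted p of 0.057 to 0.154.

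Several probe sets were available for 116 of the 224 genes. Of the genes called at 12 h, 20 had a second probe set above the filter, which changed in the same direction in 19, and at 48 h the same held for 22 of 23. LINC00472's second probe set had group means of 5.13 in CdCl cells and 5.49 in control cells at 12 h, and of 3.81 and 5.86 at 48 h. For FAM111A-DT the second probe set was dim, under 4 on 10 of 12 arrays, and its log2 difference was -0.45 at 12 h and -1.15 at 48 h. Where each probe set lies on its transcript was not analysed here, and an antisense signal was read as the annotation names it.

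Well-known lncRNA genes outside the naming rule gave a mixed picture. Of 37 listed, 14 passed the filter, with 3 higher and 4 lower at 12 h, and 5 higher and 5 lower at 48 h. After centring on the median of the genes tested the counts at 12 h became 6 and 2, and those at 48 h stayed 5 and 5. For comparison, 16.7% of all genes were higher and 39.7% lower at 12 h, or 24.4% and 26.5% after centring, and 26.5% were higher and 28.0% lower at 48 h, or 28.0% and 26.6% after centring. CASC15 and UCA1, both studied in cancer cells, were higher at 48 h, by 1.57 ± 0.19 and 1.47 ± 0.25 log2 units (adjusted p 3.4e-05 and 0.00043). CRNDE was lower by 1.38 ± 0.12 at 48 h (adjusted p 2.6e-06), and MALAT1, a nuclear speckle RNA, was lower by 0.44 ± 0.16 at 12 h and by 0.48 ± 0.16 at 48 h (adjusted p 0.031 and 0.021). ZFAS1 read 13.80, 13.92 and 13.80 with CdCl at 48 h, against 13.31, 13.10 and 13.36 in controls (0.59 ± 0.08, adjusted p 9.5e-05), and its change at 12 h was -0.02 ± 0.08. DANCR was higher by 0.36 ± 0.10 at 12 h (adjusted p 0.010) and lower by 0.87 ± 0.10 at 48 h (2.5e-05). DLEU1 was lower by 0.76 ± 0.09 at 12 h and by 0.80 ± 0.09 at 48 h (adjusted p 2.4e-05 and 1.4e-05). GAS5 was not called at either time (adjusted p 0.73 and 0.28).

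Genes of lncRNA processing and decay were counted too, to be read against the same shares of all genes. Of 21 genes of the Integrator complex and of transcript termination and cap binding, 0 were higher and 14 lower at 12 h, and 3 higher and 8 lower at 48 h, where the count at 12 h became 3 higher and 8 lower after centring on the median of the genes tested. INTS1, a scaffold subunit of Integrator, was lower by 1.25 ± 0.19 log2 units at 12 h, and CPSF3, the nuclease that cuts at the poly-A site, by 0.80 ± 0.07. The largest change of this list at 48 h was a rise, that of CSTF2 by 0.94 ± 0.11. Of 19 tested genes of the nuclear exosome and its cofactors, 3 were higher and 4 lower at 12 h, and 3 and 3 at 48 h, which after centring became 7 and 3 at 12 h and 4 and 1 at 48 h. EXOSC6 was higher by 1.31 ± 0.14 at 12 h, while EXOSC9 was lower by 0.66 ± 0.11 at 12 h and by 0.89 ± 0.11 at 48 h. Nonsense-mediated decay factors gave 3 higher and 7 lower of 13 tested at 12 h, or 3 and 2 after centring, and 4 and 3 at 48 h. Core proteins of the snoRNA particles gave 1 higher and 4 lower of 16 tested at 12 h, or 2 and 1 after centring, and 5 and 4 at 48 h.

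The genes whose values over the 12 arrays were most like LINC00304 were HSPB8, a small heat shock protein gene, with Pearson's r of 0.992, BMAL1, a clock gene, with 0.988, and FEM1C, with 0.987. For FAM111A-DT they were FZD2, a Wnt receptor gene, with 0.987, RTRAF, with 0.985, and PNMA1, with 0.982. The 12 arrays fall into 4 groups, so these values mainly restate differences between group means and carry no test.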

How the data were processed

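Total RNA of 12 HK-2 samples was hybridised to Affymetrix arrays, 1 array per sample. The deposited values are log2 signals that the authors made with GCRMA, per the submitters' processing notes. No source used here gives the version. GCRMA corrects background by probe sequence, so values near or under 4 bound a level rather than measure it. The number of arrays limits the precision. The labels call the replicates biological. Where separate cultures are not described, p-values measure the spread between these samples.

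Of 54675 probe sets, 41091 carried 1 gene symbol of the platform annotation, 1801 several and 11783 none, controls included. Each of 19775 genes was read from its probe set with the highest mean, and 10683 genes above 4 on at least 3 arrays entered 1 limma fit (limma 3.58.1, R 4.3.3, constant prior in eBayes) of the means of the 4 groups with 4 two-sided comparisons. Adjusted p-values are Benjamini-Hochberg over all genes tested, with a threshold of 0.05. Levels are means ± SD and changes log2 differences ± SE. "At least" folds set a group under 4 on all its arrays to 4. The fit was checked on simulated data.

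Named were the 10 largest rises and falls at each time among called genes without overlap, the 5 largest in each direction for the other comparisons, all SNHG genes, partner genes, the genes nearest the filter, and 3 genes most alike. Of each list the 4 largest changes per time were to be named, but only some are printed. No gene of the snoRNA particle and nonsense-mediated decay lists is printed. ZFAS1 and GAS5 are printed without being among the 4 largest. The members and lists were chosen with earlier results of these data known. Correlations of deviations between same-numbered replicates were -0.34 to 0.00 within a time. With 3 arrays per group they cannot settle whether the replicates are paired. The main fit has no block, and a block was run as an alternative. Gene starts and sequences came from RefSeq tables of GRCh38.p14, using the first listed start.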

Additional observations from a re-analysis of the deposited data

Results flagged for a closer look

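For 17 named lncRNA genes the CdCl effect at 48 h differed from that at 12 h by the interaction test of the limma fit, with an adjusted p under 0.05 over all genes tested. Some of them were named for the size of this difference. The values are log2 units, the effect at 48 h minus the effect at 12 h. More positive at 48 h were RNASEH1-DT (1.64), FAM111A-DT (1.33), ITGB1-DT (1.08), SNHG33 (0.89), FLVCR1-DT (0.79), LINC01003 (0.70), SNHG32 (0.57) and SNHG17 (0.50). More negative at 48 h were ZFHX4-AS1 (-1.04), LINC00472 (-0.96), CARD8-AS1 (-0.92), LINC-PINT (-0.87) and LINC00662 (-0.67). For genes that passed the filter through CdCl or control arrays only, the fit without a filter was used: DNAAF3-AS1 (1.78), SUGCT-AS1 (1.41), LINC00537 (1.40) and HOXA-AS2 (-0.56), with adjusted p-values of 0.0012, 0.022, 0.00065 and 0.026. In each of these 4, in ITGB1-DT and in LINC00472 some group means lie under 4, so the size is not a measured one. Without a filter CARD8-AS1, LINC00472 and LINC01003 lost the call (adjusted p 0.12, 0.057 and 0.096). CARD8-AS1 also lost it with the replicate block (0.061) and without any 1 of 9 arrays (0.052 to 0.098), and LINC01003 without any 1 of 8 arrays (0.057 to 0.083). With the mean of all probe sets of a gene the calls of FAM111A-DT, HOXA-AS2, LINC-PINT and LINC00662 ended (0.32, -0.06, -0.18 and -0.08).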

How the results depend on the processing

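Of 2540 values of 128 single gene results, differences between times included, 2434 kept their direction and their side of the threshold, 71 lost a call, 33 gained one and 2 reversed. The reversals came with the mean of all probe sets of a gene: EPB41L4A-AS1 at 48 h (-0.36, against 0.19) and BAIAP2 at 48 h (0.038, against -0.47). For counts of lncRNA genes, the number higher at 12 h was 50 with arrays centred on the median of the genes tested, an alternative chosen after seeing the data, against 30. The number with a more negative effect at 48 h was 8 without a filter, against 13, and the number lower in control cells at 48 h was 18 with a filter of 5, against 28. Fewer genes pass the stricter filter. The cause of the others was not tested. Leaving out 1 array gave 29 to 35 higher and 53 to 69 lower at 12 h, 44 to 60 higher and 37 to 44 lower at 48 h, 42 to 55 and 9 to 13 for the difference between times, and 71 to 83 and 20 to 29 in control cells. The labels do not say whether equal replicate numbers pair the samples, and deviations among 3 arrays per group cannot settle it. With the replicate block the counts were 31 and 67 at 12 h, 55 and 43 at 48 h, 49 and 11 for the difference between times, and 81 and 25 in control cells, and 4 of 128 single calls changed. A quantile normalization and an intensity-trended prior were also run. With 3 arrays against 3, a call leans on the spread shared by many genes.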

Other observations

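Further lncRNA genes that were higher at 48 h were chosen after their values were seen. MAP4K3-DT, divergent to a kinase gene of nutrient signalling, read 7.62, 7.64 and 7.85 in CdCl cells at 48 h, against 5.69, 5.68 and 6.01 in controls, 3.76-fold higher (adjusted p 3.3e-07). LINC00520 read 6.32, 6.69 and 6.78 with CdCl, against 5.11, 5.10 and 5.10 in controls, 2.82-fold higher (adjusted p 4e-05). SBF2-AS1 read 7.03, 7.02 and 7.14 with CdCl, against 5.59, 5.60 and 5.62 in controls, 2.75-fold higher (adjusted p 1.5e-05), and MSC-AS1 was 2.66-fold higher (1.5e-05). TMEM161B-DT was 2.43-fold higher (adjusted p 1.7e-07). PAX8-AS1, antisense to the renal transcription factor gene PAX8, passed the filter through CdCl arrays at 48 h alone, where it read 4.19, 4.77 and 4.22, against 2.56, 2.92 and 2.66 in controls, at least 1.31-fold higher. PAX8 itself was higher by 0.32 ± 0.06 log2 units at 48 h (adjusted p 0.00053).

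Some bright lncRNA genes differed between the times in control cells. With CdCl they were not called in the comparisons given here, at 48 h alone for OIP5-AS1. OIP5-AS1 read 10.47, 10.48 and 10.35 with CdCl at 48 h, against 10.57, 10.47 and 10.46 in controls (log2 change -0.07 ± 0.07, adjusted p 0.45), and in control cells it was higher at 48 h than at 12 h by 0.85 ± 0.07 (1.3e-06). THAP9-AS1 gave a like pattern, with -0.06 ± 0.09 at 12 h and 0.11 ± 0.09 at 48 h for CdCl against control (adjusted p 0.63 and 0.32), and 0.98 ± 0.09 with time in control cells (3.7e-06).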
